A study of Mus musculus with 6 samples.

Results

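The genes described here are 33 members of the unfolded protein response and the integrated stress response, chosen by symbol from the 23207 genes of a count table. They fall into stress sensors with the transcription factors they act through (6 genes), chaperones and folding enzymes of the endoplasmic reticulum (ER, 14 genes), ER-associated degradation (ERAD, 6 genes), amino acid and feedback genes of the type that the factor ATF4 switches on (5 genes) and regulatory subunits of the eIF2α phosphatase (2 genes). All 33 had enough reads to be tested, and the lowest estimated count of any of them in any mouse was 72. The data are bulk RNA sequencing of splenic endothelial cells from 6 Apoe-knockout mice, a strain prone to high blood cholesterol and atherosclerosis because apolipoprotein E is missing. All 6 mice ate a high cholesterol diet and were given, for 8 weeks, an antisense oligonucleotide (ASO), which pairs with a chosen RNA in cells and lowers it. Mice 1601, 1602 and 1608 had a control ASO, whereas mice 1603, 1604 and 1607 had an ASO directed at the message of Mlkl, the gene of the protein that breaks open the cell membrane at the end of necroptosis. The labels' genotype field calls the first group control and the second Mlkl KD, so the model is a knockdown by a drug-like agent and not a gene deletion, and it need not be restricted to endothelial cells. Neither age and sex nor the way the cells were isolated is stated in the labels.

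When proteins misfold in the ER, the membrane proteins IRE1 (gene Ern1), PERK (Eif2ak3) and ATF6 sense it. IRE1 splices the Xbp1 message, ATF6 is cut to release a transcription factor, and together they raise chaperones such as BiP (Hspa5) and the ERAD machinery that pulls misfolded proteins out for destruction. PERK phosphorylates the translation factor eIF2α, which slows protein synthesis but favours translation of ATF4, and kinases that sense amino acid shortage, haem shortage or double-stranded RNA reach the same step. ATF4 then raises genes for amino acid synthesis and uptake, and the phosphatase that GADD34 (Ppp1r15a) guides to eIF2α ends the response. IRE1 splicing, ATF6 cleavage, PERK activity and ATF4 translation are not visible in gene-level RNA counts.

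Values are CPM, estimated counts scaled to a common library total, from totals of 59988846 to 87776706. Values per mouse are always given in the order 1601, 1602 and 1608 for the control ASO and 1603, 1604 and 1607 for the MLKL ASO. Mlkl itself was at 30.7, 31.2 and 38.0 CPM with the control ASO and at 7.53, 5.81 and 3.74 CPM with the MLKL ASO, lower as its label says. All 12 endothelial markers were present in every mouse. They summed to 2479, 3389 and 4454 CPM with the control ASO and to 3253, 3001 and 3043 CPM with the MLKL ASO. The groups overlapped, and control mice 1601 and 1608 held the lowest and the highest sum. Markers of other spleen cells were present too. Those of T and NK cells summed to 471, 241 and 179 CPM in control mice and to 117, 170 and 131 CPM in MLKL ASO mice, with no overlap. Of these 8 genes, 7 were lower in every MLKL ASO mouse (87.5%, against 9.71% of all genes). DESeq2 called 5 lower (62.5%, against 1.48%). Control mouse 1608 stood apart in the 6 megakaryocyte and platelet markers, which summed to 72.7 CPM there and to 1044 to 2688 CPM in the other mice. The highest of these sums was that of MLKL ASO mouse 1604. The 11 plasma cell markers, from a cell type with an abundant ER, summed to 27169, 20491 and 10684 CPM in control mice and to 11341, 10199 and 9441 CPM in MLKL ASO mice. Most of that sum was Igkc and Ighm, at 14605 and 8619 CPM in mouse 1601. Sdc1 (52.0, 48.6 and 56.0 CPM) and Prdm1 (3.02, 6.07 and 3.19 CPM) did not follow its order in control mice. The sum of the 8 B cell markers did, at 2252, 1265 and 988 CPM, with 907, 710 and 1137 CPM in MLKL ASO mice. The 8 erythroid markers summed to 1548, 635 and 636 CPM and to 1331, 2244 and 985 CPM. The 10 immediate early genes, which handling of tissue can raise, summed to 8746, 8564 and 10112 CPM and to 4501, 5556 and 6001 CPM, with no overlap. In bulk samples fewer cells of a type and less RNA per cell cannot be told apart.

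The stress response genes did not move as 1 programme between the groups. The median log2 fold changes of the sensors, the ER chaperones and the ERAD genes were -0.09, -0.09 and -0.25, with single genes from -0.69 (Syvn1 and Hyou1) to 0.36 (Canx). Asns and Trib3 of the ATF4 type were 1.90-fold and 2.87-fold higher. In edgeR's quasi-likelihood test no member passed an adjusted p of 0.05 in either direction, where 0.00506% of the 19745 genes tested passed lower and 0.00506% higher (1 gene each). At an unadjusted edgeR p under 0.05, 3 members were higher (9.09% of them, against 4.89% of all genes) and 5 lower (15.2%, against 6.96%). DESeq2 called 2 members higher, Asns and Trib3 (6.06%, against 1.14% of all genes), and none lower (against 1.48%). Limma-voom with sample weights called none of the members.

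By level alone, 4 members were higher in every MLKL ASO mouse than in any control mouse (12.1% of them, against 9.02% of all genes). Another 7 were lower in every MLKL ASO mouse (21.2%, against 9.71%), and 22 overlapped. The log2 fold change, MLKL ASO minus control ASO, was below 0 for 21 of the 33 (63.6%, against 51.2% of all genes), and its median over the members was -0.10. It was smaller than 0.25 in either direction for 17 members. With 3 mice a group, an exact two-sided permutation test of 1 gene cannot go below p = 0.1.

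**Figure D1:**
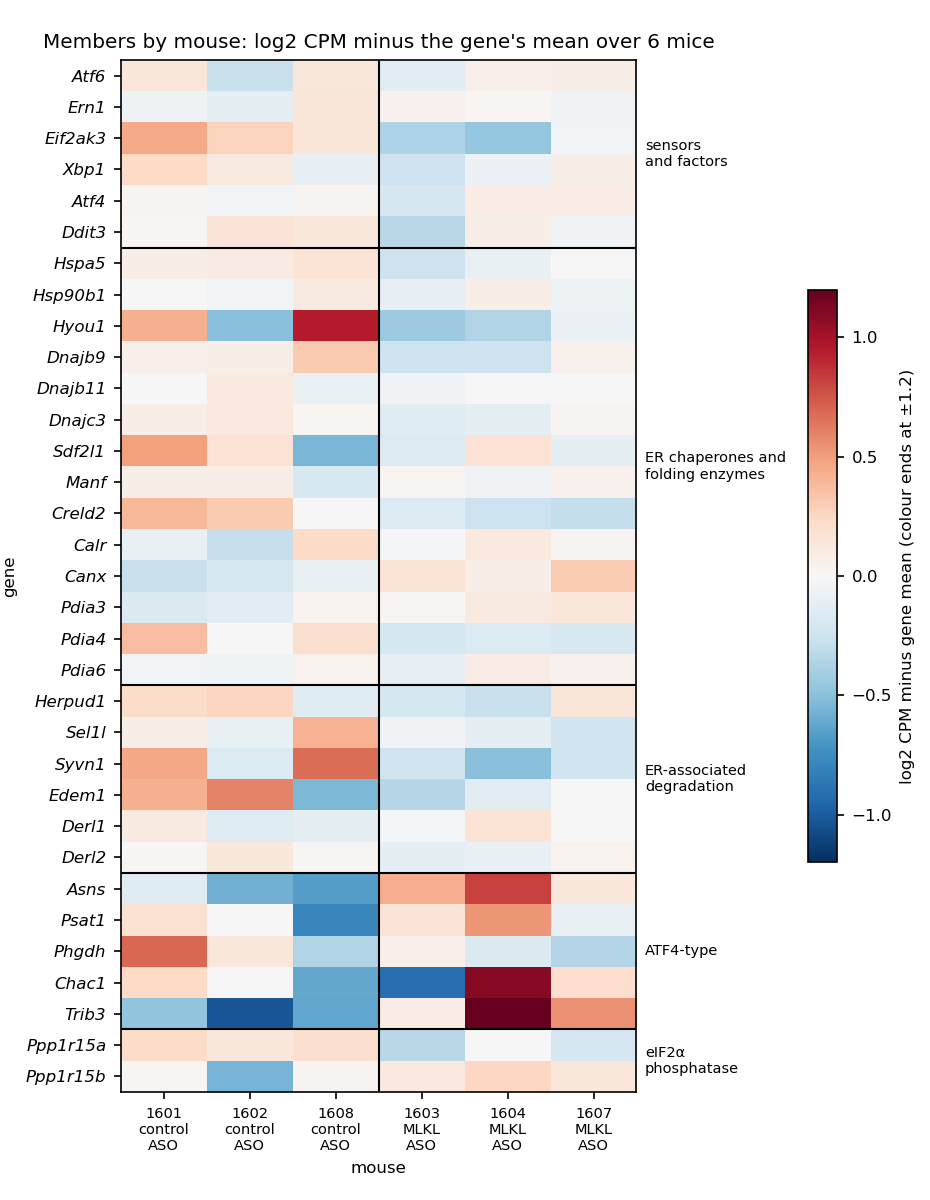
Level of each of the 33 members (rows, grouped by role) in each mouse (columns), as log2 CPM minus the gene's mean over the 6 mice, red for higher and blue for lower. The red squares of Asns and Trib3 under the MLKL ASO stand beside mostly pale chaperone rows, and Sdf2l1, Edem1, Psat1 and Phgdh vary as much among control mice as between groups.

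**Figure D2:**
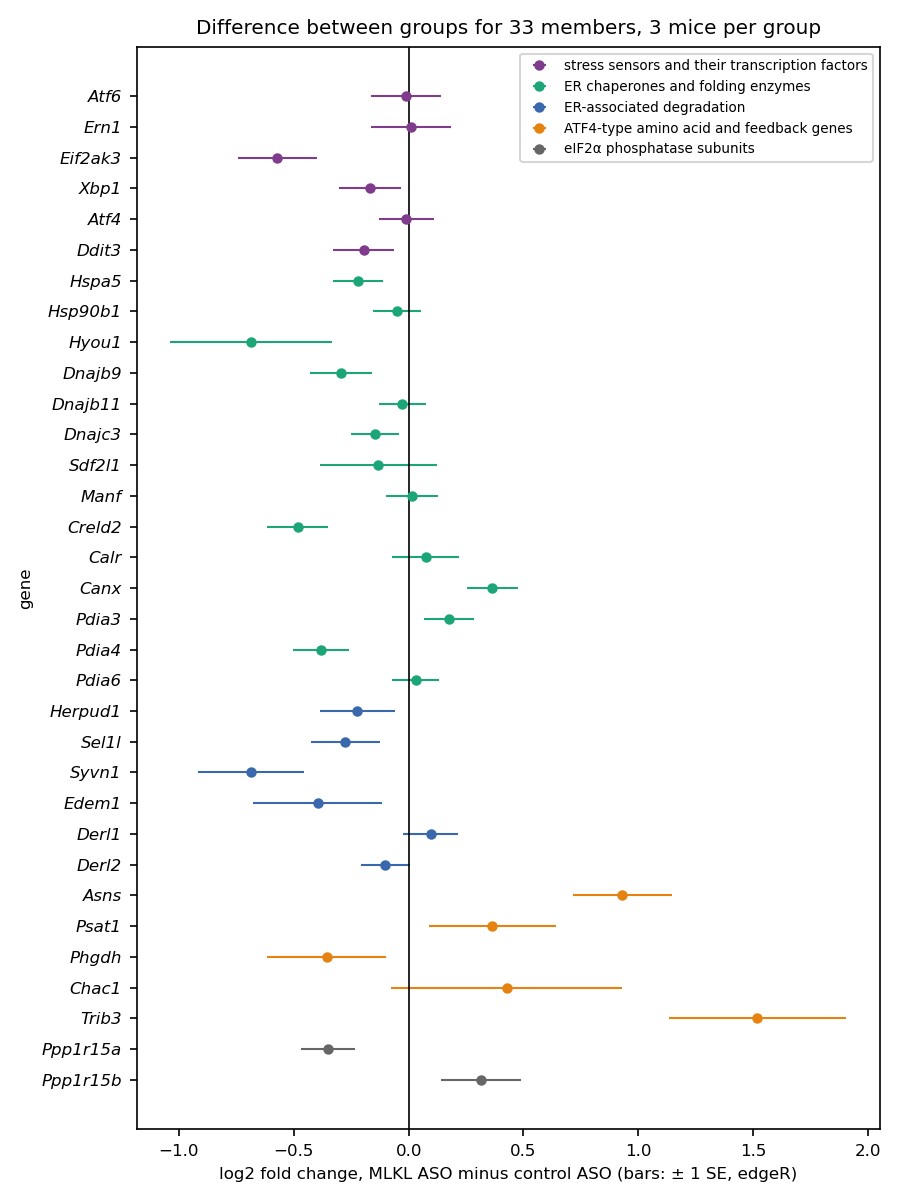
Log2 fold change of each member (x axis, MLKL ASO minus control ASO, 3 mice a group) with bars of 1 standard error from edgeR, coloured by role. Trib3 at 1.52 and Asns at 0.93 stand furthest to the right, and Syvn1, Hyou1 and Eif2ak3 between -0.69 and -0.57 furthest to the left.

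Among the sensors and their transcription factors, only Eif2ak3 separated the groups, being lower (16.7% of the 6, against 9.71% of all genes). Of the 6, 5 differed by less than 0.25 on the log2 scale. The median log2 fold change of the 6 was -0.09. Eif2ak3, the gene of PERK, was at 22.9, 20.1 and 18.4 CPM in control mice and at 12.9, 12.1 and 16.3 CPM in MLKL ASO mice. Every MLKL ASO mouse lay below every control mouse, with means of 20.5 ± 2.23 and 13.8 ± 2.22 CPM (SD, n = 3). The log2 fold change was -0.57 ± 0.17 (SE) with an adjusted p of 0.342 in edgeR and 0.0836 in DESeq2. DESeq2 called it lower when mouse 1607 or mouse 1608 was left out. Those fits called 234 and 1248 genes in all, against 515 with all mice.

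The other sensors were level. Ern1, the gene of IRE1, was at 7.11, 6.88 and 8.23 CPM and at 7.66, 7.52 and 7.18 CPM, a log2 fold change of 0.01 ± 0.18 (SE, adjusted p = 0.992 in edgeR). Atf6 was at 39.3, 29.8 and 39.5 CPM and at 32.7, 37.3 and 37.8 CPM, a log2 fold change of -0.01 ± 0.15 (SE, adjusted p = 0.987 in edgeR). For both genes the MLKL ASO mice lay within the range of the control mice, and the sign of so small a difference depended on the mouse left out.

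Of the factors, Xbp1 carries out the IRE1 arm after splicing and is also needed by plasma cells. It was at 358, 327 and 283 CPM with the control ASO and at 255, 288 and 317 CPM with the MLKL ASO, a log2 fold change of -0.17 ± 0.14 (SE, adjusted p = 0.655 in edgeR). The ranges overlapped, and within the control group the order of Xbp1 followed that of the plasma cell and B cell marker sums. Atf4, the central factor of the integrated stress response, was at 115, 110 and 115 CPM and at 98.5, 120 and 120 CPM. Its message therefore overlapped between the groups, with mouse 1603 lowest (log2 fold change -0.01 ± 0.12 (SE), adjusted p = 0.987 in edgeR). Ddit3, the gene of CHOP, a factor that favours cell death under lasting stress, was at 58.8, 64.3 and 62.8 CPM and at 45.8, 60.4 and 56.1 CPM. Mouse 1603 was again lowest, and without it the log2 fold changes of Ddit3 and Xbp1 were both -0.10. For Ddit3, 1 of the 3 MLKL ASO mice lay above the lowest control mouse (log2 fold change -0.20 ± 0.13 (SE), adjusted p = 0.603 in edgeR).

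The ER chaperones and folding enzymes split within the group. Of 14 genes, 9 had a log2 fold change below 0 (64.3%, against 51.2% of all genes) and 5 above, with a median of -0.09. In 9 the difference was smaller than 0.25. Creld2, Pdia4, Hspa5 and Dnajb9 were lower in every MLKL ASO mouse than in any control mouse (28.6%, against 9.71% of all genes). Canx was higher in every one (7.14%, against 9.02%). The sum of the 14 genes overlapped, at 6252, 6208 and 6642 CPM with the control ASO and 5969, 6349 and 6557 CPM with the MLKL ASO.

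Hspa5 encodes BiP, the main chaperone of the ER lumen, which also holds the sensors inactive. It was at 1945, 1969 and 2063 CPM in control mice and at 1555, 1731 and 1840 CPM in MLKL ASO mice. The control mice lay close together and above all MLKL ASO mice, but the step was small, with a log2 fold change of -0.22 ± 0.11 (SE, adjusted p = 0.469 in edgeR). Dnajb9, a co-chaperone of BiP that restrains IRE1, was at 112, 113 and 134 CPM and at 90.6, 90.2 and 111 CPM (log2 fold change -0.30 ± 0.14 (SE), adjusted p = 0.446 in edgeR). Its highest MLKL ASO mouse, 1607, came just below the lowest control mouse.

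Creld2, a folding factor that is secreted in part under ER stress, was at 162, 153 and 124 CPM and at 110, 103 and 101 CPM. All MLKL ASO mice lay lower, at 105 ± 4.85 against 146 ± 20.2 CPM (SD, n = 3), with a log2 fold change of -0.48 ± 0.13 (SE). The adjusted p was 0.327 in edgeR and 0.0730 in DESeq2, and DESeq2 called it lower without mouse 1608. Pdia4, a disulfide isomerase that helps secreted proteins fold, was at 254, 197 and 224 CPM and at 170, 175 and 172 CPM. The MLKL ASO mice were almost equal and below all controls, with a log2 fold change of -0.38 ± 0.12 (SE, adjusted p = 0.353 in edgeR and 0.15 in DESeq2). DESeq2 called Pdia4 lower without mouse 1602.

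Creld2, but not Pdia4, followed the order of the plasma cell and B cell marker sums within the control group. All 11 plasma cell markers had a log2 fold change below 0 (100%, against 51.2% of all genes). Their part in the values of the chaperones was not tested and cannot be told apart from that of the ASO. With the plasma cell marker level as a covariate, the log2 fold change of Creld2 was -0.25 and that of Pdia4 -0.29, against -0.48 and -0.38 without it, and neither passed edgeR's adjusted threshold. Other chaperones lay further from 0 with that covariate, Hspa5 at -0.31, Dnajb9 at -0.45 and Hyou1 at -0.96, against -0.22, -0.30 and -0.69 without it. With the erythroid marker covariate Dnajb9 was at -0.14. Sdf2l1, a partner of ER co-chaperones, was at 129, 103 and 62.3 CPM in control mice and 81.5, 103 and 84.1 CPM in MLKL ASO mice. Its groups overlapped fully. Its log2 fold change moved from -0.13 to 0.42 with the plasma cell marker covariate and to -0.49 with the erythroid one.

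Canx went the other way. It encodes calnexin, the membrane chaperone that holds glycoproteins by their sugar chains, and was at 726, 762 and 820 CPM in control mice and at 979, 919 and 1073 CPM in MLKL ASO mice. The gap between the highest control and the lowest MLKL ASO mouse exceeded the range of the control mice, and the means were 769 ± 47.0 and 990 ± 77.7 CPM (SD, n = 3). The log2 fold change was 0.36 ± 0.11 (SE), with an adjusted p of 0.345 in edgeR and 0.115 in DESeq2, which called it higher without mouse 1608. Its partners of the same glycoprotein cycle overlapped between groups, with log2 fold changes of 0.08 for Calr, the soluble counterpart of calnexin, and 0.18 for Pdia3, the disulfide isomerase that works with both.

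The remaining chaperones overlapped between groups. Hyou1, a large chaperone that helps BiP exchange its nucleotide, was at 10.9, 5.72 and 15.6 CPM and at 5.99, 6.31 and 7.69 CPM, a log2 fold change of -0.69 ± 0.35 (SE, adjusted p = 0.492 in edgeR). Relative to their mean, its control mice spanned the widest range of all 33 members, and control mouse 1602 was the lowest of all 6 mice. Its log2 fold change was -0.31 without mouse 1608 and -0.99 without mouse 1602, where DESeq2 called Hyou1 lower. The abundant chaperone Hsp90b1 differed by -0.05 on the log2 scale, the BiP co-chaperones Dnajb11 and Dnajc3 by -0.03 and -0.15, the secreted factor Manf by 0.02 and the isomerase Pdia6 by 0.03.

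Sequences of the promoters show which of these genes hold an exact match to the element through which ATF6, with NF-Y, acts on chaperones. The ER stress response element, searched on both strands as CCAAT, then 9 bases of any kind, then CCACG, was found in 8 of the 28 members with a promoter in the RefSeq table for GRCm38.p6, and in 0.119% of all 32851 promoters of that table. Each window ran from 250 bases before the start site to 50 after it. Here and for the elements below, members are counted as genes, with 30 promoter entries between them, and the share is of entries. Members were chosen as genes of these pathways, so the figures are not a test. The 9 matches are printed 5′ to 3′ in the direction of the element, with its fixed ends in capitals, because they set Creld2, Hspa5 and Syvn1, lower in every MLKL ASO mouse, beside Canx, higher in every one, and beside genes that overlapped.
Calr: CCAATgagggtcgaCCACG
Canx: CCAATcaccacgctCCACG
Creld2: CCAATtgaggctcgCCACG
Dnajc3: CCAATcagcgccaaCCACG
Hsp90b1: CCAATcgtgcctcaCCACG
Hsp90b1: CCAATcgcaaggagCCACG
Hspa5: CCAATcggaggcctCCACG
Pdia6: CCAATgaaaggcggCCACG
Syvn1: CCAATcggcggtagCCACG
The members with the element thus went in different directions, with log2 fold changes of -0.69 for Syvn1, -0.48 for Creld2, -0.22 for Hspa5, -0.15 for Dnajc3, -0.05 for Hsp90b1, 0.03 for Pdia6, 0.08 for Calr and 0.36 for Canx. The unfolded protein response element TGACGTGG, a site for XBP1 and ATF6, was in no member window on either strand and in 0.676% of all promoters. A match is a description of letters and not evidence of binding. Near copies of an element were not searched for, so a window without a match may still hold such a copy.

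For Hspa5 the window from 250 bases before to 30 after the start (chr2:34771840-34772119, plus strand, GRCm38.p6) is shown whole, since it is the textbook target of the pathway. Capitals mark the exact match to the ER stress response element, which begins 65 bases before the start.
Hspa5: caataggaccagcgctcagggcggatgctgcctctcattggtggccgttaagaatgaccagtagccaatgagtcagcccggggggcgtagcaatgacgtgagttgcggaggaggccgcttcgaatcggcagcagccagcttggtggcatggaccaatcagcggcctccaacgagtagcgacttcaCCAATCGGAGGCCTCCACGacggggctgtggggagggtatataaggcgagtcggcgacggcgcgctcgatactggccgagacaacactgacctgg

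The ERAD genes leaned lower, with 5 of 6 below 0 (83.3%, against 51.2% of all genes) and a median of -0.25 for the log2 fold change. Between groups 5 of the 6 overlapped, and 1 was lower in every MLKL ASO mouse (16.7%, against 9.71%). Syvn1, the ubiquitin ligase HRD1 at the centre of the ERAD channel, was at 23.6, 15.2 and 27.1 CPM in control mice and at 14.5, 12.1 and 14.4 CPM in MLKL ASO mice. All MLKL ASO mice lay lower, the closest pair being 15.2 and 14.5 CPM. The means were 22.0 ± 6.12 and 13.7 ± 1.37 CPM (SD, n = 3). The log2 fold change was -0.69 ± 0.23 (SE), with an adjusted p of 0.365 in edgeR and 0.139 in DESeq2, which called it lower without mouse 1602. Sel1l, the adaptor that holds the HRD1 complex together, was at 133, 119 and 169 CPM and at 123, 118 and 107 CPM, a log2 fold change of -0.28 ± 0.15 (SE, adjusted p = 0.516 in edgeR). Control mouse 1608 stood above the rest, the others overlapped, and without that mouse the log2 fold change was -0.12.

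Edem1, a lectin that steers misfolded glycoproteins to degradation and a classic XBP1 target, was at 36.2, 40.7 and 18.6 CPM and at 21.2, 24.5 and 26.9 CPM. The lowest and the highest mouse were both controls, so the log2 fold change of -0.40 ± 0.28 (SE, adjusted p = 0.618 in edgeR) was smaller than the range within 1 group. It was -0.18 without mouse 1602 and -0.67 without mouse 1608, where DESeq2 called Edem1 lower. Herpud1, an ER stress-induced scaffold of the same complex, was at 537, 554 and 419 CPM and at 401, 383 and 511 CPM, also overlapping (log2 fold change -0.22 ± 0.16 (SE), adjusted p = 0.627 in edgeR). In both genes control mice 1601 and 1602, with the highest plasma cell marker sums, were the 2 highest of all mice. With the plasma cell marker covariate the log2 fold change of Edem1 was 0.06, that of Herpud1 -0.06 and that of Syvn1 -0.75, and the median of the 6 ERAD genes was -0.09. That covariate leaned with the group, at a mean log2 CPM of 7.29, 6.77 and 6.31 in control mice and 6.42, 6.07 and 6.12 in MLKL ASO mice. The part of plasma cells in the ERAD values therefore cannot be told apart from that of the ASO, and it was not tested. The channel proteins Derl1 and Derl2 differed by 0.10 and -0.10 on the log2 scale, with overlapping groups.

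**Figure D3:**
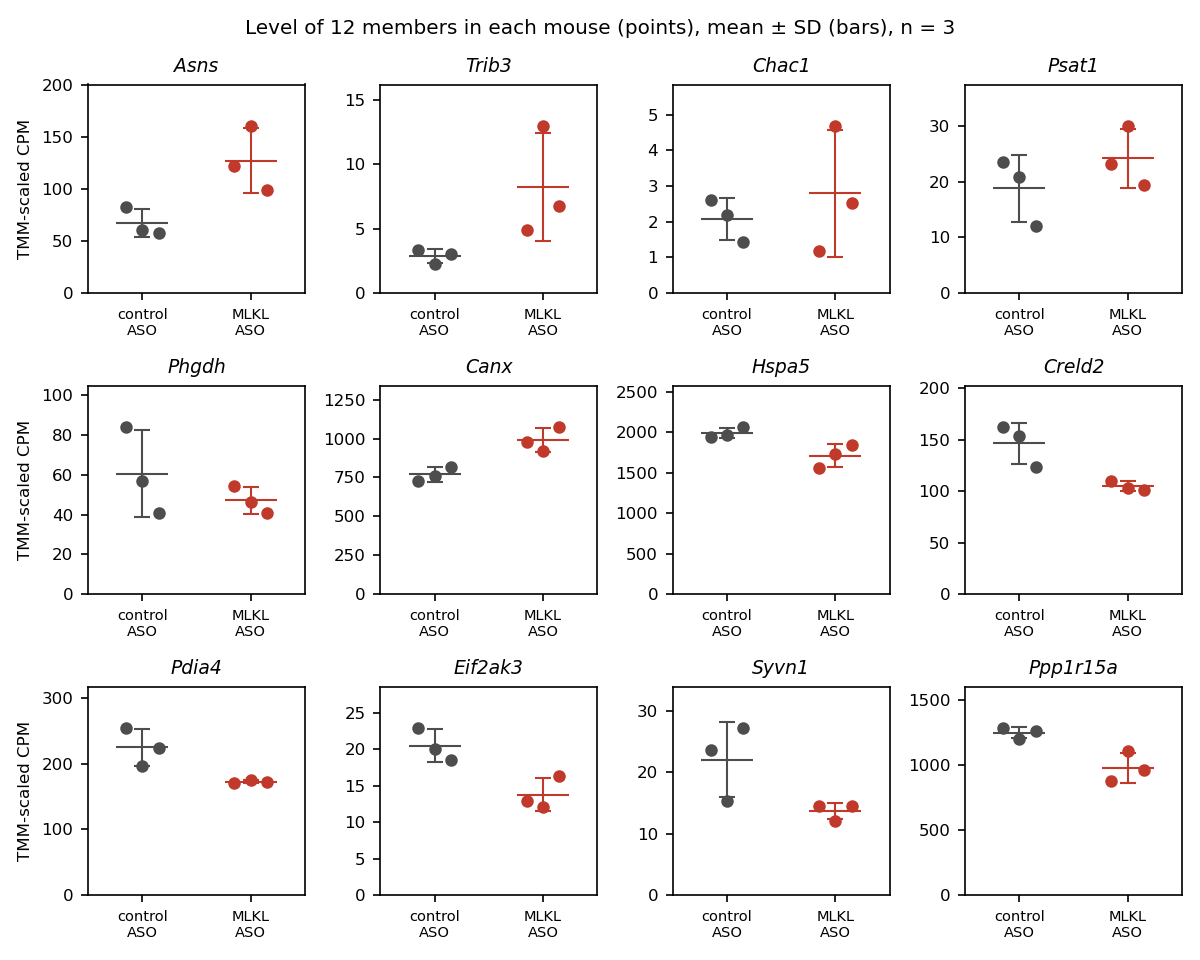
Level of 12 members in each mouse (points, scaled CPM, axes from 0) with the mean and SD of each group (bars, n = 3). Asns, Trib3 and Canx are higher in every MLKL ASO mouse, Hspa5, Creld2, Pdia4, Eif2ak3, Syvn1 and Ppp1r15a are lower in every one, and Chac1, Psat1 and Phgdh overlap.

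The ATF4-type genes held both members that a test called (40.0% of the 5, against 1.14% of all genes), but they did not move together. Of the 5, 4 were above 0 and 1 below (20.0%, against 51.2%), with a median log2 fold change of 0.43. The sum of the 5 genes overlapped, at 195, 143 and 114 CPM with the control ASO and at 206, 254 and 169 CPM with the MLKL ASO. The C/EBP-ATF element, the composite site at which ATF4 binds with a C/EBP partner, was searched on both strands as TGATGNAA. It was found in 4 of the 28 members with a listed promoter, Asns, Trib3, Chac1 and Herpud1, and in 3.97% of all promoters. The windows of Asns (chr6:7693180-7693459, minus strand), Trib3 (chr2:152344031-152344310, minus strand) and Chac1 (chr2:119350992-119351271, plus strand), all in GRCm38.p6 and from 250 bases before to 30 after the start, are printed because these 3 genes have the element and yet different values. Capitals mark it.
Asns: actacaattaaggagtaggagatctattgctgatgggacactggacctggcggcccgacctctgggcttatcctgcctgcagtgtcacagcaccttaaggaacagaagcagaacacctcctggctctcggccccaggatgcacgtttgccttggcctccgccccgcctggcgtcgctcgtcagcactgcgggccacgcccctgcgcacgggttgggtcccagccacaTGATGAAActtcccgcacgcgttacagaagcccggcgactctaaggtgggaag
Trib3: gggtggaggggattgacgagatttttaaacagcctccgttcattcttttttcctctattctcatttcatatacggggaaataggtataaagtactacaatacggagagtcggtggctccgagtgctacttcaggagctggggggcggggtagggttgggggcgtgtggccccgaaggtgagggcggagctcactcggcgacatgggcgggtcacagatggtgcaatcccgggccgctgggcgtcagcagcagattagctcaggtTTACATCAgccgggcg
Chac1: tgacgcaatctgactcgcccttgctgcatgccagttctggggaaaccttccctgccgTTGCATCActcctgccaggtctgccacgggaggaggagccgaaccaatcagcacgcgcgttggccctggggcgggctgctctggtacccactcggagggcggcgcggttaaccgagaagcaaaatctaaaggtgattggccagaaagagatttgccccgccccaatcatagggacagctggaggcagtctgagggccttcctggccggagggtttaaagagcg
In Asns the element reads TGATGAAA on the gene's own strand and begins 23 bases before the start. In Trib3 it lies on the opposite strand, where it reads TGATGTAA, 14 bases after the start. In Chac1 and Herpud1 it reads TGATGCAA on the opposite strand, 193 and 112 bases before the start. Psat1 and Phgdh had no match to these letters in their windows.

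Asns encodes asparagine synthetase, which makes asparagine from aspartate and glutamine. It was at 82.0, 60.9 and 57.1 CPM in control mice and at 122, 160 and 99.0 CPM in MLKL ASO mice. Every MLKL ASO mouse lay above every control mouse, mouse 1604 being highest, with means of 127 ± 30.8 and 66.7 ± 13.4 CPM (SD, n = 3). The log2 fold change was 0.93 ± 0.22 (SE) with an adjusted p of 0.289 in edgeR, and 0.94 with an adjusted p of 0.0106 in DESeq2. Over the 16 alternative settings the adjusted p ran from 0.0106 to 0.678, and only DESeq2 passed the threshold. In the authors' deposited table, from DESeq2, the log2 fold change of Asns was 0.94 with an adjusted p of 0.0156.

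Trib3 encodes a pseudokinase that ATF4 and CHOP switch on and that feeds back on them. It was low in every control mouse, at 3.33, 2.27 and 2.99 CPM, and at 4.92, 12.9 and 6.78 CPM in MLKL ASO mice. Mouse 1604 stood well above the others, and the groups did not overlap, with means of 2.87 ± 0.544 and 8.21 ± 4.20 CPM (SD, n = 3). The log2 fold change was 1.52 ± 0.38 (SE) with an adjusted p of 0.319 in edgeR, and 1.53 with an adjusted p of 0.00902 in DESeq2. Adjusted p-values over the 16 alternative settings ran from 0.00902 to 0.694, again passing only in DESeq2. The authors' deposited table gave 1.59 with an adjusted p of 0.00237.

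Both DESeq2 calls were lost when either of 2 mice was left out. Leaving out mouse 1604, edgeR gave log2 fold changes of 0.72 for Asns and 1.02 for Trib3, the lowest of the 6 such fits. DESeq2 without that mouse gave adjusted p-values of 0.152 and 0.0942, and without control mouse 1602 0.0823 and 0.0756. Without mouse 1603 Asns was at 0.0980 and Trib3 remained called at 0.00112. Both were called with mouse 1601, 1607 or 1608 left out.

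Markers of erythroid cells, which were higher on average with the MLKL ASO, moved beside these genes, but so did those of other cell types. All 8 erythroid markers had a log2 fold change above 0 (0% below, against 51.2% of all genes). None was at 0 CPM in any mouse, and their sums overlapped between groups. MLKL ASO mouse 1604 was highest for the erythroid sum, for Asns and for Trib3. It also held the highest neutrophil sum (1983 CPM), megakaryocyte and platelet sum (2688 CPM) and stromal fibroblast sum (74.6 CPM). The macrophage sum was highest in control mouse 1601 (2377 CPM). All 8 neutrophil and all 6 megakaryocyte and platelet markers had a log2 fold change above 0 (0% below in each, against 51.2% of all genes). The part of these other cell types was not tested. The erythroid sums were 1548, 635 and 636 CPM in control mice and 1331, 2244 and 985 CPM in MLKL ASO mice. With the erythroid marker level as a covariate, the log2 fold change of Asns was 0.51 (adjusted p = 0.261 in edgeR) and that of Trib3 1.03 (adjusted p = 0.418). With the plasma cell marker covariate the log2 fold changes were 1.19 and 1.37. The 8 proliferation genes likewise summed to 811, 523 and 408 CPM in control mice and to 1007, 1069 and 793 CPM in MLKL ASO mice, and their part in the result was not tested.

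**Figure D4:**
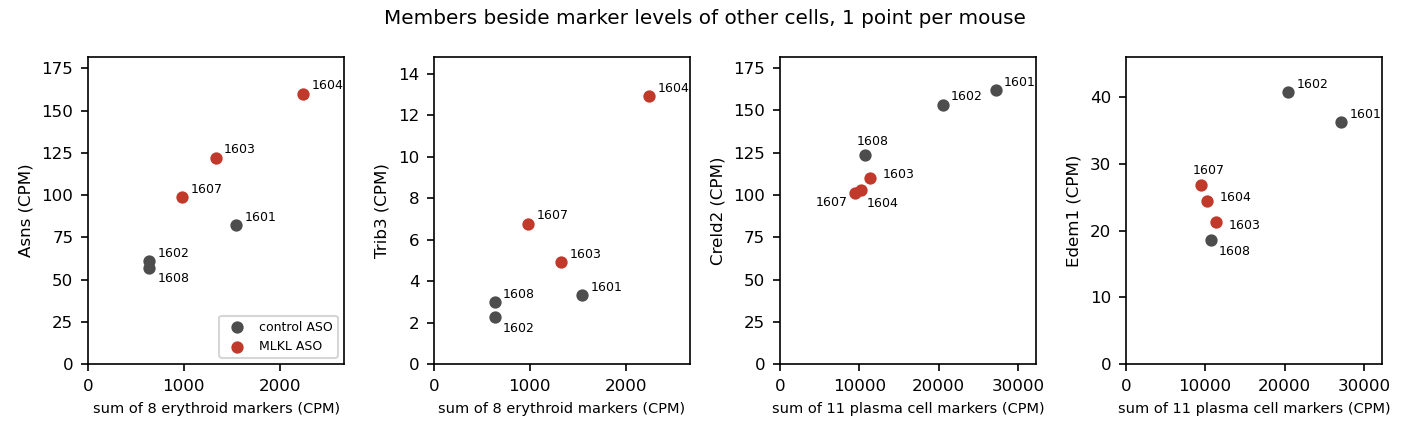
Asns and Trib3 against the sum of 8 erythroid markers, and Creld2 and Edem1 against the sum of 11 plasma cell markers (all in CPM from 0), with 1 labelled point per mouse. Asns and Trib3 are highest in mouse 1604, which has the highest erythroid sum, while Creld2 and Edem1 are highest in control mice 1601 and 1602, which have the highest plasma cell sums.

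The other genes of this type did not separate the groups. Psat1 and Phgdh encode enzymes of serine synthesis. Psat1 was at 23.5, 20.8 and 12.1 CPM and at 23.2, 30.0 and 19.5 CPM (log2 fold change 0.36 ± 0.28 (SE), adjusted p = 0.641 in edgeR). Phgdh, the enzyme of the first step, was at 84.0, 56.8 and 40.7 CPM and at 54.4, 46.3 and 40.9 CPM (log2 fold change -0.36 ± 0.26 (SE), adjusted p = 0.627 in edgeR). For both enzymes the control group held the widest range, from a high value in mouse 1601 to a low one in mouse 1608. Phgdh was at -0.06 on the log2 scale without mouse 1601 and at -0.57 without mouse 1608, and Psat1 at 0.13 without mouse 1608. Chac1, an enzyme that breaks down glutathione and a sensitive ATF4 target, was at 2.60, 2.20 and 1.43 CPM and at 1.17, 4.68 and 2.53 CPM. Mice 1603 and 1604 of the MLKL ASO group were the lowest and the highest of all 6, and the log2 fold change of 0.43 ± 0.50 (SE, adjusted p = 0.778 in edgeR) turned to -0.17 without mouse 1604. With the erythroid covariate, Psat1 was at -0.07, Chac1 at -0.17 and Phgdh at -0.71, and with the plasma cell covariate Phgdh was at 0.31 and Psat1 at 0.87. With the erythroid covariate the median of the 5 genes turned from 0.43 to -0.07.

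The phosphatase subunits that reverse eIF2α phosphorylation went in opposite directions. Ppp1r15a, the stress-induced subunit GADD34, was at 1280, 1200 and 1261 CPM in control mice and at 876, 1103 and 956 CPM in MLKL ASO mice. All MLKL ASO mice lay lower, with a log2 fold change of -0.35 ± 0.12 (SE, adjusted p = 0.370 in edgeR and 0.204 in DESeq2). Its direction was that of the immediate early genes, of which 9 of 10 were lower in every MLKL ASO mouse (90.0%, against 9.71% of all genes). The part of the immediate early genes in the value was not tested. Ppp1r15b, the constitutive subunit, was at 46.6, 31.4 and 47.2 CPM and at 50.1, 54.6 and 50.7 CPM. Every MLKL ASO mouse lay above every control mouse, mice 1601 and 1608 lying just below them, and the log2 fold change was 0.31 ± 0.17 (SE, adjusted p = 0.522 in edgeR). Without control mouse 1602, the lowest, it was 0.14.

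Beyond the members, 129 further genes of these pathways were tested, and edgeR's adjusted threshold called none of them. Their median log2 fold change was 0.03, against -0.01 over all genes, and at an unadjusted edgeR p under 0.05 16 were higher (12.4%, against 4.89% of all genes) and 9 lower (6.98%, against 6.96%). Other ATF4 targets, such as amino acid transporters, tRNA synthetases and enzymes of the folate cycle, leaned higher. Of 37 tested, 27 were above 0 and 10 below (27.0%, against 51.2% of all genes), and the median was 0.24. At an unadjusted edgeR p under 0.05 9 were higher (24.3%, against 4.89% of all genes) and none lower (against 6.96%). Among them, 13 were higher in every MLKL ASO mouse than in any control mouse (35.1%, against 9.02% of all genes) and 2 lower in every one (5.41%, against 9.71%). DESeq2 called 4 of the 37 higher (10.8%, against 1.14%) and none lower (against 1.48%). The list was chosen with earlier results of these data known. All 8 erythroid markers had a log2 fold change above 0 as well (0% below, against 51.2% of all genes), with the highest sum in mouse 1604. The neutrophil markers and the megakaryocyte and platelet markers did the same. Of the 8 proliferation genes, 5 were higher in every MLKL ASO mouse (62.5%, against 9.02% of all genes) and DESeq2 called 3 higher (37.5%, against 1.14%). The part of these markers in the values of the ATF4 targets was not tested.

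Those 4 were Slc1a5, Mthfd2, Stc2 and Eif4ebp1, and none overlapped between groups. Slc1a5, a transporter of glutamine and other neutral amino acids, was at 101, 84.1 and 87.6 CPM in control mice and at 120, 150 and 141 CPM in MLKL ASO mice, a log2 fold change of 0.59 ± 0.13 (SE, adjusted p = 0.276 in edgeR and 0.0129 in DESeq2). Mthfd2, a mitochondrial enzyme of the folate cycle, was at 32.0, 21.0 and 18.6 CPM and at 36.9, 60.2 and 40.4 CPM, a log2 fold change of 0.94 ± 0.27 (SE, adjusted p = 0.331 in edgeR and 0.0419 in DESeq2). As in Asns and Trib3, mouse 1604 was highest for both of these genes. Stc2, a secreted glycoprotein, was at 7.05, 11.0 and 25.6 CPM and at 37.0, 38.4 and 44.2 CPM, a log2 fold change of 1.45 ± 0.43 (SE, adjusted p = 0.342 in edgeR and 0.0365 in DESeq2). Eif4ebp1, which restrains cap-dependent translation, was at 90.3, 90.7 and 74.7 CPM and at 125, 113 and 116 CPM, a log2 fold change of 0.47 ± 0.12 (SE, adjusted p = 0.322 in edgeR and 0.0354 in DESeq2). All 4 kept their direction in DESeq2 with each mouse left out. Each of the 4 remained called without mouse 1601 and none without mouse 1602, 1604 or 1607. Without mouse 1603 only Slc1a5 among them remained called, and without mouse 1608 all but Mthfd2.

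The remaining lists had medians between -0.07 and 0.15. Other ER folding and glycan genes had 12 of 22 below 0 (54.5%, against 51.2% of all genes) and a median of -0.03. Their smallest p-values were those of Ero1b, an oxidase that makes disulfide bonds (log2 fold change -0.50, adjusted p = 0.327 in edgeR), and Tmx1, a membrane thioredoxin (0.29, adjusted p = 0.365). Other ERAD genes had 10 of 17 below 0 (58.8%, against 51.2% of all genes) and a median of -0.07. Of these ERAD genes, 3 were lower at an unadjusted edgeR p under 0.05 (17.6%, against 6.96% of all genes). The smallest p-values were those of Aup1, with a log2 fold change of -0.31, and of the lectin Os9, with -0.33. Genes of translocation into and export from the ER had 13 of 25 below 0 (52.0%, against 51.2% of all genes) and a median of -0.02. Their smallest p-values were those of the coat protein Sec31a, at -0.34, and the translocon subunit Ssr3, at 0.25. Of the 15 other stress transcription factors and their proteases, 7 were below 0 (46.7%, against 51.2% of all genes), with a median of 0.03. The C/EBP family member Cebpg, a partner of ATF4, was at 22.4, 33.4 and 30.3 CPM in control mice and at 41.5, 42.6 and 57.5 CPM in MLKL ASO mice (log2 fold change 0.72 ± 0.20 (SE), adjusted p = 0.327 in edgeR). Atf5, another factor of this response, differed by 0.68 (adjusted p = 0.405). Both were higher in every MLKL ASO mouse.

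Of the other eIF2α kinases and the eIF2 and eIF2B subunits, 10 of 13 were above 0 and 3 below (23.1%, against 51.2% of all genes), with a median of 0.15. At an unadjusted edgeR p under 0.05 3 were higher (23.1%, against 4.89% of all genes) and 1 lower (7.69%, against 6.96%), and 3 were higher in every MLKL ASO mouse (23.1%, against 9.02%). The RNA-sensing kinase PKR (Eif2ak2) was at 36.3, 38.4 and 47.2 CPM with the control ASO and at 56.3, 57.7 and 59.1 CPM with the MLKL ASO, opposite in direction to the ER kinase PERK (log2 fold change 0.51 ± 0.13 (SE), adjusted p = 0.327 in edgeR). Impact, which restrains the amino acid sensing kinase GCN2, was at 78.3, 82.1 and 94.5 CPM and at 54.9, 58.4 and 70.0 CPM (log2 fold change -0.48 ± 0.14 (SE), adjusted p = 0.342 in edgeR). Neither overlapped between groups.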

How the data were processed

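Splenic endothelial RNA from 6 mice, 1 library each, was sequenced from directional mRNA libraries, per the labels' protocols. Per the submitters' processing notes, reads were trimmed with fastp 0.20.1 and quantified with Salmon 1.3.0, and DESeq2 was used. In the sources used here no genome build is given. The authors deposited estimated counts per gene, of which 69.3% are not whole, and a DESeq2 table that holds, per the file headers, a mean normalised signal, a log2 fold change and its error, a test score and p-values. Its log2 values correlated with those computed here at r = 0.977 across 19728 genes of the same libraries, so positive means higher in MLKL ASO. Genes that share reads with near-identical copies are uncertain.

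The estimated counts were rounded and tested in R 4.3.3 with edgeR 4.0.16 (default expression filter, 19745 genes, TMM scaling, quasi-likelihood test, two-sided, Benjamini-Hochberg over all genes, threshold 0.05). Values are TMM-scaled CPM. DESeq2 1.42.0 and limma 3.58.1 (voom with sample weights), other scalings and filters, a plasma cell marker covariate and leaving out each mouse were alternatives. An erythroid marker covariate and DESeq2 with each mouse left out were added after seeing the data. Both marker covariates differed on average between the groups, so fits with them cannot separate cell content from the ASO. The scripts were tested on simulated data. Each mouse is 1 replicate.

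The members, role groups, other lists and markers were chosen with earlier results of these data known. Named are all members, with values per mouse for Hspa5, Xbp1, Atf4, Atf6, Ern1, Eif2ak3 and Ddit3, those that edgeR or DESeq2 called, and up to 4 per role group with the smallest edgeR p. Of each other list, those called are named, or else the 2 with the smallest p. Promoters are from RefSeq, matched by symbol for 28 of 33 members. Library totals were 59988846 to 87776706, and precision also depends on there being 3 mice a group.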

Additional observations from a re-analysis of the deposited data

How the results depend on the processing

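Under 16 other settings 18 of 33 members kept their direction and side of the threshold, 2 (Asns and Trib3) passed it in DESeq2 alone, and 13 changed sign, the largest of these having a log2 fold change of 0.43. No paired analysis was possible because mouse numbers do not recur between the groups. Scaling moved the median of all genes by under 0.1 on the log2 scale. The limit is 3 mice a group with more spread among controls, and the causes of the changes below were not tested.

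Over all genes edgeR called 1 lower and 1 higher. It called 2 and 2 with upper-quartile scaling and 4 and 5 with library totals alone. DESeq2 called 291 and 224, limma-voom 13 and 9, and edgeR 0 and 0 with either covariate. With a mouse left out edgeR called 0 to 9 lower and 0 to 10 higher, the most without mouse 1608. Members called by edgeR stayed at 0 in these fits. DESeq2 called 2 members higher with all mice and 0 to 3 with a mouse left out, and 0 to 3 lower. The number of all genes it called, in both directions, was 515 with all mice. It was 1065 without mouse 1601, 507 without 1602, 248 without 1603, 234 without 1604 or 1607 and 1248 without 1608. Without mouse 1602 it called 0 higher and 3 lower (Hyou1, Pdia4 and Syvn1). Without mouse 1603 it called 1 higher and without mouse 1604 none, without mouse 1607 1 lower (Eif2ak3), and without mouse 1608 3 higher, with Canx, and 3 lower (Creld2, Edem1 and Eif2ak3). Members at an unadjusted p under 0.05 numbered 8 lower and 5 higher in limma-voom, and 4 to 8 lower and 2 to 4 higher with a mouse left out, 8 lower being without mouse 1608.

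The ATF4-type median was 0.87 with the plasma cell covariate and -0.073 with the erythroid one, and the ERAD median -0.090 with the former. Sign changes were these. Upper-quartile scaling gave Atf4 0.0089 and Atf6 0.0086, and totals alone Atf4 0.0083 and Atf6 0.010. Limma-voom gave Atf6 0.12 and Manf -0.037. The plasma cell covariate gave Ern1 -0.082, Sdf2l1 0.42, Pdia6 -0.045, Calr -0.10, Phgdh 0.31 and Edem1 0.063. The erythroid covariate gave Chac1 -0.17, Psat1 -0.073, Manf -0.018 and Derl1 -0.051. With a mouse left out, Atf6 ran from -0.14 to 0.058, Atf4 from -0.064 to 0.068, Ern1 from -0.043 to 0.093, Manf from -0.063 to 0.058, Sdf2l1 from -0.37 to 0.098, Calr from -0.034 to 0.23, Dnajb11 from -0.071 to 0.022, Pdia6 from -0.014 to 0.073 and Chac1 from -0.17 to 0.79.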

Other observations

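The SD of log2 CPM was larger among control than among MLKL ASO mice for 18 of the 33 members (54.5%) and for 69.2% of all genes, a difference that was not tested. Its median over the members was 0.17 and 0.12, against 0.35 and 0.22 over all genes. By mouse, MLKL ASO mouse 1603 held the lowest value of 11 members and the highest of none, and control mouse 1608 the highest of 9 and the lowest of 7. Mouse 1601 was highest in 7 and lowest in 2 members, and mouse 1607 highest in 3 and lowest in 2.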
